A study of Mus musculus with 15 samples.

Results

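Type I interferon-stimulated genes are the genes that cells switch on when interferon-alpha or interferon-beta binds its receptor. A list of 42 such mouse genes was followed in skin, each found by its Ensembl identifier among the 56059 genes of the deposited table. All 42 listed genes were found, and all 42 passed the filter on low counts that left 18651 genes to test. The skin came from transplanted mice that model the sclerodermatous, skin-hardening form of chronic graft-versus-host disease, a fibrosing reaction of grafted immune cells to their host. Syngeneic recipients on vehicle (0.4% methylcellulose, n = 4) had a genetically matched graft. Allogeneic recipients had a mismatched graft and received the same vehicle (n = 3) or 5 mg/kg of Wnt-C59 (n = 4). The remaining 4 allogeneic recipients received that dose of Wnt-C59 and belumosudil at 150 mg/kg. All agents were given orally each day between day 21 and day 49 after the transplant, and all groups shared the transplant itself. Wnt-C59 blocks porcupine, the enzyme that lipidates Wnt proteins for secretion, and belumosudil blocks the kinase ROCK2. Strains, ages and donors are not given in the sources used here, and nothing states that each library is a separate animal, so p-values measure the spread between these libraries only.

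The last group is called the combination. Its 4 columns carry the code RW, whose meaning is not given in the labels, and were assigned to it by elimination, as the remaining columns for the remaining samples. The series title also names ruxolitinib, an inhibitor of the JAK kinases through which interferon receptors signal, as a partner of porcupine inhibition, and no sample is labelled with it. The agent behind these 4 columns therefore rests on elimination alone.

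Type I interferons bind the paired receptor chains IFNAR1 and IFNAR2. The kinases JAK1 and TYK2 then activate STAT2, which joins IRF9 and binds the interferon-stimulated response element, a short DNA motif built on repeated GAAA letters. The induced proteins sense viral nucleic acid, degrade RNA, halt translation or tag other proteins, and USP18 ends the signal. Interferon-gamma, the type II interferon of T cells and natural killer cells, has a receptor of its own and induces some of the same genes, so none of the 42 genes marks type I interferon alone.

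The response element played no part in choosing the genes, and it was looked for in their promoters. RefSeq promoter windows (build GRCm38.p6, from 250 bases before to 50 bases after the annotated start) were at hand for 30 of the 42 genes. The core (GAAA, any 2 bases, then GAAA again, read on both strands) occurred in 16 of the 30 windows (53.3%, exact 95% interval 34.3% to 71.7%) and in 1079 of 27025 genes of the same table (3.99%). A longer form (AGTTTC, any 2 bases, then TTTC, both strands), whose matches all contain the core on the other strand, occurred in 9 of 30 and in 0.30% of all genes. The gamma-activated site TTCNNNGAA, a known element of interferon-gamma responses, read on both strands, occurred in 6 of 30 and in 9.55% of all genes. Stretches of 80 bases from 6 genes are shown because each holds more than 1 core match upstream of the start, with the matched letters in capitals and each stretch written in the direction of its gene.

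Isg15: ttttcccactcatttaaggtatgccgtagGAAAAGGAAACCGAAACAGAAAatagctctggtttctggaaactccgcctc

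Ifit1: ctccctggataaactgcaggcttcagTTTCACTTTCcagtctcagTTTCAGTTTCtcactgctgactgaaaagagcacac

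Ifit3: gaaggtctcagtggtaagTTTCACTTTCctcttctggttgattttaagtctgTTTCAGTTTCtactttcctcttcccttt

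Oas1g: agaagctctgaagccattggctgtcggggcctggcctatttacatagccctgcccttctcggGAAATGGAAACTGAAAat

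Ddx60: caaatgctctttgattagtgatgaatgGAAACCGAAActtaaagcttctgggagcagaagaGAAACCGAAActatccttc

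Bst2: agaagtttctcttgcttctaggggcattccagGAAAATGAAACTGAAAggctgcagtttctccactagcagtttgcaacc

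These stretches lie at chr4:156200846-156200925 on the minus strand (Isg15), chr19:34640759-34640838 on the plus strand (Ifit1) and chr19:34583355-34583434 on the plus strand (Ifit3). The others lie at chr5:120887614-120887693 on the minus strand (Oas1g), chr8:61928007-61928086 on the plus strand (Ddx60) and chr8:71537555-71537634 on the minus strand (Bst2). The matches run into each other in Isg15 (3 overlapping matches), Oas1g and Bst2 (2 each), and they stand apart in the Ifit genes and Ddx60. The stretch of Ifit3 recurs base for base in front of its neighbour Ifit3b, and the 250 bases upstream of these genes were 77.0% identical; the figure for Oas1a and Oas1g was 82.8%. Copies of this kind are not independent matches. A match is a description of letters, and a window without one says nothing about binding.

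**Figure D1:**
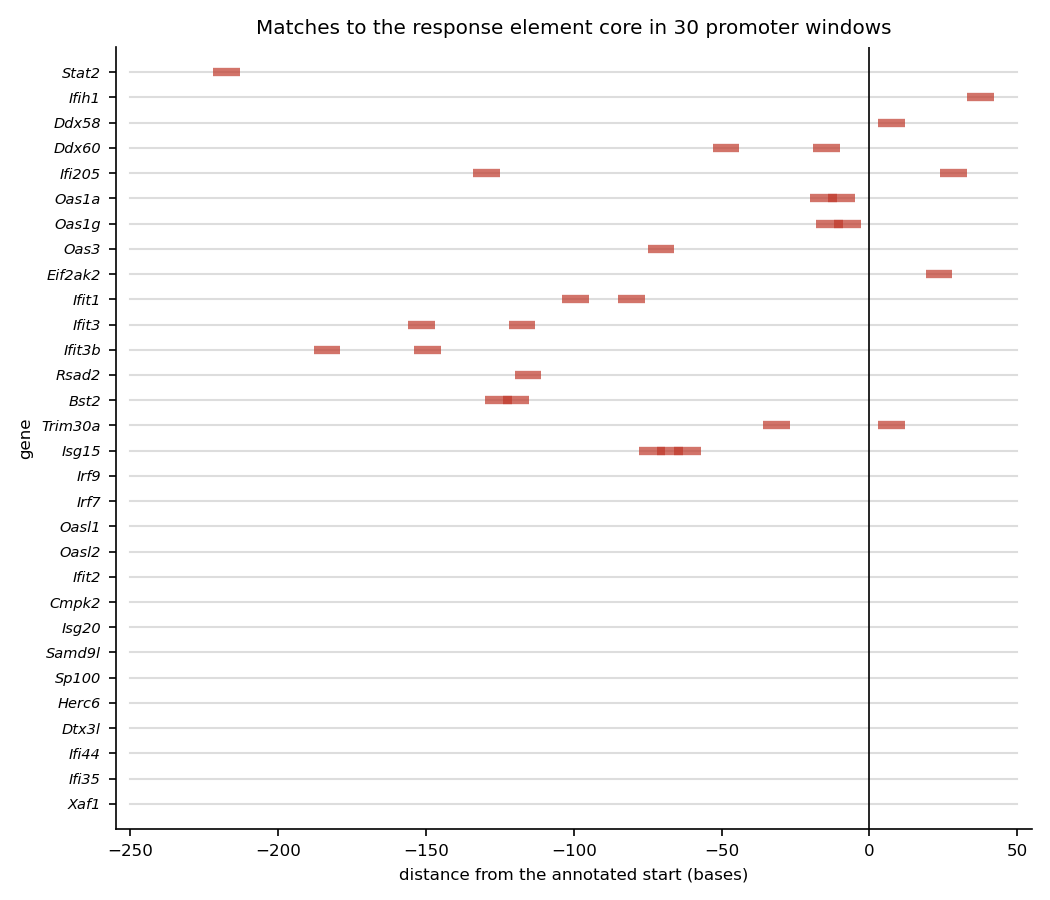
Positions of matches to the response element core (red) in the 30 promoter windows, in bases from the annotated start of each gene (grey lines span the window). The 16 genes with a match stand at the top, and in most of them the matches lie upstream of the start.

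Depth and composition set limits on all comparisons. Total estimated counts ran from 16.26 to 28.78 M per library, with 22110 to 24283 genes detected. Values that were not whole numbers made up 31.1% to 34.4% of non-zero values in vehicle libraries and 44.8% to 60.6% in treated libraries, and no label gives a batch, so treatment and whatever follows this split cannot be told apart. Keratinocyte markers, which define skin, summed to 11248 to 54081 CPM (counts per M of scaled library size), while skeletal muscle markers ranged from 132 to 45386 CPM between libraries. In bulk tissue fewer cells of a type and less RNA per cell cannot be told apart.

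Levels of different genes were compared per length. In syngeneic skin Ifi27l2a, a small mitochondrial protein gene, stood highest at 216 CPM per kb of its longest transcript, followed by Bst2 at 71.3 and Isg15 at 44.1 CPM per kb. In allogeneic skin Bst2 led at 177 CPM per kb, before Ifi27l2a at 146 and Isg15 at 116, and these 3 genes also led in both treated groups. The lowest were Ddx60 in syngeneic skin (1.63 CPM per kb), Oasl1 in allogeneic skin (4.12), and Rsad2 under Wnt-C59 (1.44) and under the combination (1.02). Neighbours at the top of the allogeneic order did not differ beyond their spread: before division by length, Ifi27l2a ran from 21.1 to 159 CPM and Bst2 from 81.7 to 219 CPM.

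The first comparison set allogeneic against syngeneic skin, both on vehicle, and asked what the mismatched graft changed. Of the 42 genes, 21 rose, 0 fell and 21 did not pass an adjusted p of 0.05, against a background of 14.6% of all tested genes that rose. Beside the 0 that fell, 0 were lower at an unadjusted p under 0.05, and DESeq2 and limma-voom also called 0 lower. Their median log2 fold change was 1.37, with a range of -0.57 to 3.05, while the median of all tested genes was -0.07. By role, 2 of 3 transcription factors rose, 4 of 7 nucleic acid sensors, 5 of 8 oligoadenylate synthetase and PKR genes, 4 of 6 genes of the ISG15 and ubiquitin pathway, 4 of 10 Mx and other antiviral effectors and 2 of 4 other genes. None of the 4 IFIT genes and neither Mx gene passed. The 3 allogeneic libraries lay above all 4 syngeneic libraries for 26 of the 42 genes, as they did for 16.7% of all tested genes.

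In the ISG15 and ubiquitin pathway 4 of 6 genes rose, among them Parp14 and Dtx3l, which had the lowest adjusted p of the 42 genes. Dtx3l, a ubiquitin ligase that works in a complex with PARP9, lay at 27.3, 16.6, 26.4 and 16.1 CPM in syngeneic libraries 1 to 4 and at 137, 123 and 157 CPM in allogeneic libraries 1 to 3. The groups did not overlap, and the log2 fold change was 2.69 (SE 0.46, adjusted p = 0.0008). Parp14, an ADP-ribosyltransferase, had 45.3 ± 18.9 CPM (SD, n = 4) in syngeneic and 224 ± 38.1 CPM (SD, n = 3) in allogeneic skin, a log2 fold change of 2.30 (SE 0.40, adjusted p = 0.00076). Parp9 rose by 2.12 (SE 0.45, adjusted p = 0.0033), and its 3 allogeneic libraries lay at 135 to 144 CPM against 21.2 to 51.9 CPM. Herc6, a ligase that attaches ISG15 in mice, rose by 1.64 (adjusted p = 0.013). Isg15 itself, the ubiquitin-like modifier, lay at 17.9, 15.1, 76.9 and 23.5 CPM in syngeneic and 75.3, 138 and 50.2 CPM in allogeneic skin. Syngeneic library 3 was above 2 of the 3 allogeneic libraries, and Isg15 did not pass (log2 fold change 1.40, SE 0.83, adjusted p = 0.23). Usp18, which removes ISG15 and shuts off the receptor, did not pass either (0.94, adjusted p = 0.30).

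Among the transcription factors 2 of 3 rose. Stat2 lay at 57.2, 44.1, 86.5 and 44.0 CPM in syngeneic and at 179, 184 and 208 CPM in allogeneic skin, with no overlap, and rose by 1.71 (SE 0.43, adjusted p = 0.0093). Irf9, its DNA-binding partner, rose by 0.87 (SE 0.30, adjusted p = 0.039). Irf7, which amplifies the production of interferon itself, had 81.2 ± 39.5 and 99.8 ± 18.5 CPM and did not pass (0.30, adjusted p = 0.70).

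Of the 7 sensors of RNA and DNA, 4 rose and 3 did not pass. Zbp1, a sensor of Z-form nucleic acids that can set off cell death, lay at 14.4, 8.21, 31.2 and 11.9 CPM in syngeneic and at 89.0, 117 and 75.2 CPM in allogeneic skin. That is a rise of 2.51 without overlap (SE 0.67, adjusted p = 0.013). Ifih1, the sensor of long double-stranded RNA known as MDA5, rose by 1.54 (SE 0.39, adjusted p = 0.0089), the DNA-binding Ifi204 by 1.59 (SE 0.40, adjusted p = 0.0092) and the helicase Ddx60 by 1.97 (SE 0.55, adjusted p = 0.016). Ddx58, the RNA sensor RIG-I, had a log2 fold change of 0.63 (adjusted p = 0.15).

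Oligoadenylate synthetases make the messenger that activates RNase L, and PKR, encoded by Eif2ak2, halts translation on double-stranded RNA. Of these 8 genes, 5 rose. Oas3 lay at 7.57, 6.49, 15.8 and 4.01 CPM in syngeneic and at 60.7, 72.8 and 76.4 CPM in allogeneic skin, the highest fold of the 42 genes (log2 fold change 3.05, SE 0.82, adjusted p = 0.015). Oas2 rose by 2.47 (SE 0.67, adjusted p = 0.015), from 10.0 to 29.1 CPM up to 105 to 131 CPM. Oas1g, Oasl2 and Eif2ak2 also rose, while Oas1a (1.83, adjusted p = 0.051) stayed just outside the threshold.

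Other antiviral effectors moved unevenly. Samd9l, a brake on cell growth and translation, rose by 1.83 (SE 0.36, adjusted p = 0.002) and Trim30a, a TRIM family protein, by 1.81 (SE 0.43, adjusted p = 0.0061), both without overlap. Ifit1, which binds viral RNA that lacks the host cap marks, lay at 31.0, 14.5, 81.6 and 10.7 CPM in syngeneic and 65.5, 94.5 and 56.8 CPM in allogeneic skin. The groups overlapped through syngeneic library 3, and the log2 fold change of 1.07 had an SE of 0.85 (adjusted p = 0.38). Mx1, a GTPase against influenza-type viruses, had a log2 fold change of 0.61 (SE 0.70, adjusted p = 0.55). Rsad2, or viperin, lay at 13.8, 8.53, 50.4 and 5.78 CPM against 22.4, 20.7 and 21.1 CPM, so that syngeneic library 3 was the highest of all 7 (0.12, SE 0.68, adjusted p = 0.91). Bst2, the tetherin that holds budding virions, did not pass (1.32, SE 0.55, adjusted p = 0.087). Ifi27l2a lay at 59.7, 70.4, 143 and 127 CPM in syngeneic and at 21.1, 159 and 22.1 CPM in allogeneic skin (-0.57, adjusted p = 0.62). Without allogeneic library 2 it was lower in allogeneic skin (-2.19, adjusted p = 0.045), the only such call among the 42 genes.

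Syngeneic library 3 stood apart in these genes, as the heat map of the 42 genes shows. It was the highest of the 4 syngeneic libraries for 37 of the 42 genes, and its mean log2 CPM over the 42 was 5.24, against 4.36, 3.81 and 3.74 in libraries 1, 2 and 4 and 5.65, 5.95 and 5.56 in allogeneic libraries 1 to 3. How many of all tested genes were highest in syngeneic library 3 was not counted. Without it 26 of the 42 genes rose; Dhx58, Oas1a, Oas1b, Oasl1 and Bst2 joined at adjusted p of 0.018 to 0.038, and Isg15, the IFIT genes and the Mx genes still did not pass. Of the 21 calls, 14 held under all 15 alternatives. The other 7 were Eif2ak2, Ifi35, Irf9, Oasl2, Rtp4, Sp100 and Xaf1, with adjusted p from 0.011 (Ifi35) to 0.039 (Irf9) over all libraries. Without allogeneic library 2 all 7 were lost (adjusted p 0.051 to 0.10), and 4 to 6 of them were lost without allogeneic library 1 (0.056 to 0.078), allogeneic library 3 (0.053 to 0.088), syngeneic library 1 (0.061 to 0.075), syngeneic library 2 (0.061 to 0.097) or syngeneic library 4 (0.058 to 0.094).

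**Figure D2:**
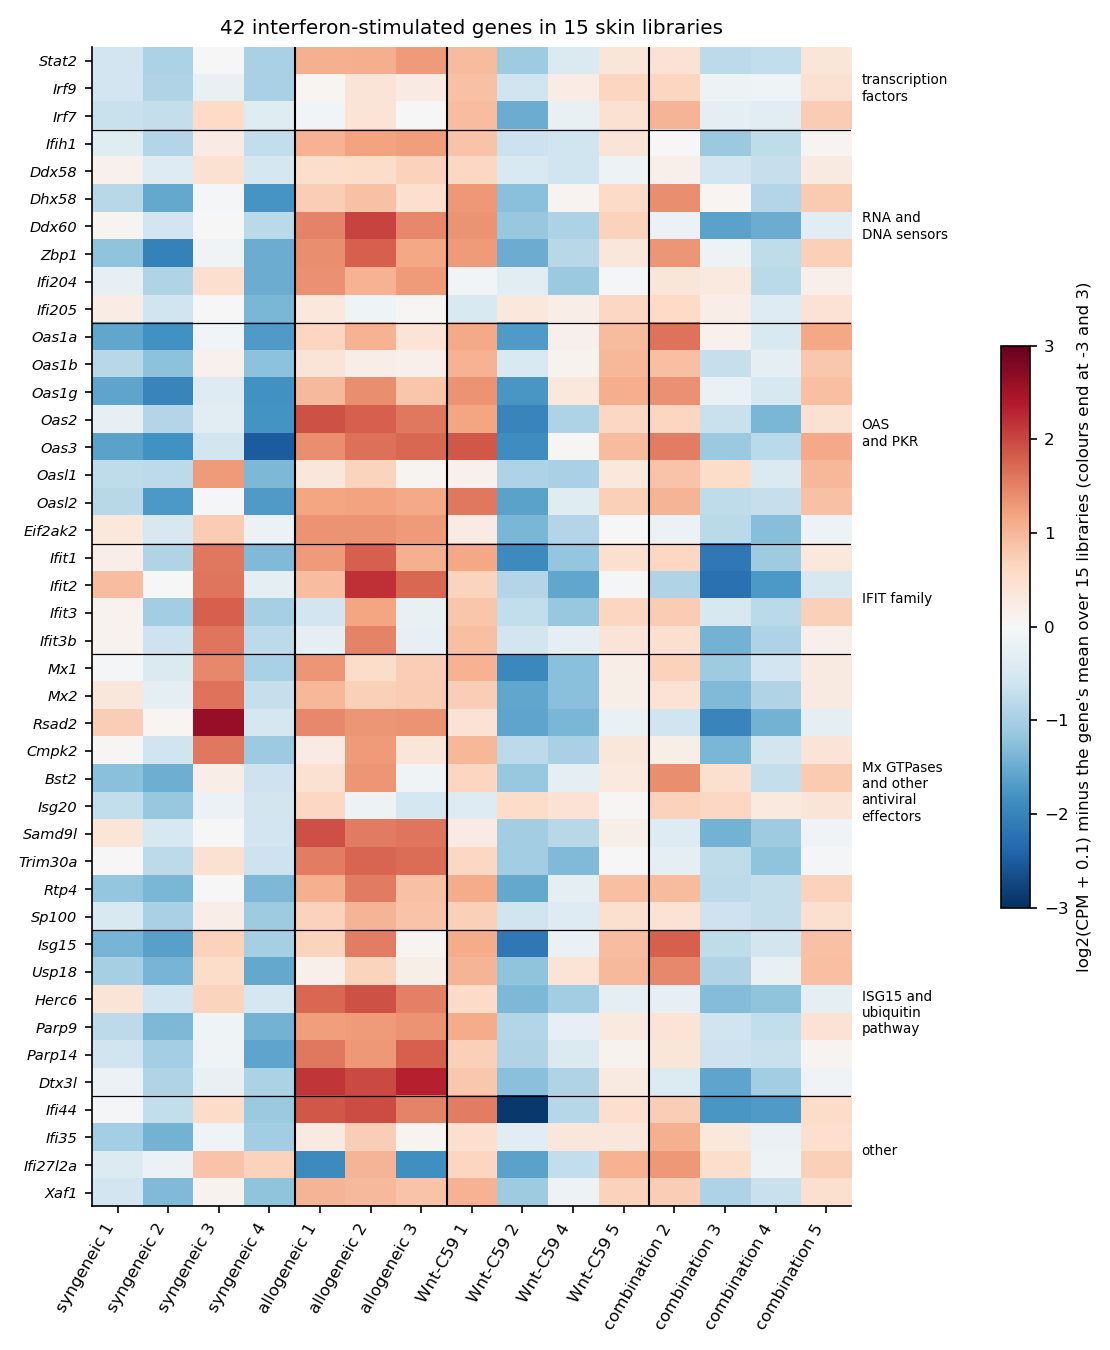
Levels of the 42 genes (rows, by role) in the 15 libraries (columns, by group), as log2 of CPM plus 0.1 minus the mean of each gene, from blue (below its mean) to red (above). Syngeneic library 3, Wnt-C59 libraries 1 and 5, and combination libraries 2 and 5 are redder than the rest of their groups.

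The presence of the response element did not separate the genes that rose from those that did not: 7 of the 16 genes with a core match rose, and 8 of the 14 without one. Isg15, Ifit1, Ifit3 and Bst2, whose promoters are printed above, did not pass, while Oas1g and Ddx60 did. This split was not tested.

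The second comparison set Wnt-C59 against vehicle in allogeneic skin and asked what porcupine inhibition changed. It shares the 3 allogeneic libraries with the first comparison, as does the comparison of the combination after it. Of the 42 genes, 10 fell, 0 rose and 32 did not pass, while 26.2% of all tested genes fell and 24.6% rose. The share of the 42 that fell, 23.8%, was close to the background. Beside the 0 that rose, 0 were higher at an unadjusted p under 0.05, and DESeq2 and limma-voom also called 0 higher. Their median log2 fold change was -0.75, against 0.00 for all tested genes. All Wnt-C59 libraries lay below all allogeneic libraries for 14 of the 42 genes, as for 27.1% of all tested genes.

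By role, the 10 that fell were 3 of 6 genes of the ISG15 and ubiquitin pathway, 3 of 10 antiviral effectors, 2 of 7 sensors, 1 of 8 oligoadenylate synthetase and PKR genes and 1 of 4 IFIT genes. Samd9l went from 122, 94.6 and 97.8 CPM in allogeneic libraries to 38.1, 15.5, 18 and 36.1 CPM in Wnt-C59 libraries 1, 2, 4 and 5 (log2 fold change -1.96, SE 0.37, adjusted p = 0.00059). Dtx3l lay at 54.7, 13.0, 16.5 and 37.5 CPM under Wnt-C59, all below the allogeneic libraries (-2.19, SE 0.45, adjusted p = 0.0014). Herc6 fell by 2.07 (adjusted p = 0.0017), Eif2ak2 by 1.69 (adjusted p = 0.0023), Trim30a by 1.89 (adjusted p = 0.0024) and Parp14 by 1.58 (adjusted p = 0.0041). Ifi204 fell by 1.57 (adjusted p = 0.0053). Ifit2, an RNA-binding IFIT protein, fell by 1.92 (adjusted p = 0.014), the only IFIT gene to do so. Ifih1 fell by 1.02 (adjusted p = 0.039) and Rsad2 by 1.83 (adjusted p = 0.041).

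The other genes did not pass. Isg15 lay at 102, 10.6, 40.8 and 89.5 CPM in Wnt-C59 libraries, so that the group overlapped both vehicle groups (-0.54, SE 0.83, adjusted p = 0.63). Irf7 (0.04), Usp18 (0.16), Mx1 (-0.95), Ifit1 (-1.30), Bst2 (-0.66) and Ifi27l2a (0.42) did not pass, with adjusted p of 0.23 or above. Stat2 (-1.01, adjusted p = 0.066) and Oas2 (-1.57, adjusted p = 0.063) stayed near the threshold, although all 4 Wnt-C59 libraries of each were below the allogeneic libraries. Without Wnt-C59 library 1 both were among 17 genes that fell, and limma-voom called 16. Ifih1 and Rsad2 were lost without any single allogeneic library (adjusted p 0.068 to 0.10) or without Wnt-C59 library 2 (0.097 and 0.099) or 4 (0.10 each), Rsad2 also without Wnt-C59 library 5 (0.065), and Ifit2 without allogeneic library 2 (0.065). Without allogeneic library 2, Ifi27l2a rose (2.07, adjusted p = 0.033).

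The third comparison set the combination against vehicle in allogeneic skin. Here 14 of the 42 genes fell, 0 rose and 28 did not pass, beside 27.4% of all tested genes that fell and 27.1% that rose. The share of the 42 that fell was 33.3%, and its gap to the background was not tested. Beside the 0 that rose, 0 were higher at an unadjusted p under 0.05, and DESeq2 and limma-voom called 0 higher. The median log2 fold change was -0.91, against 0.01 for all tested genes, and for 21 of the 42 genes all combination libraries lay below the allogeneic ones (as for 26.4% of all tested genes).

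Ifit2 had the lowest log2 fold change of the 42. It lay at 20.7, 50.1 and 36.1 CPM in allogeneic libraries and at 5.74, 2.21, 3.22 and 7.78 CPM in combination libraries 2 to 5 (log2 fold change -2.90, SE 0.60, adjusted p = 0.0012). Dtx3l lay at 23.2, 10.2, 15.0 and 28.7 CPM, near its syngeneic level (-2.85, SE 0.46, adjusted p = 0.0002). Samd9l fell by 2.37 (adjusted p = 0.00013), Herc6 by 2.41 (adjusted p = 0.00053), Trim30a by 2.17 (adjusted p = 0.00084), Eif2ak2 by 1.86 (adjusted p = 0.0011), Parp14 by 1.72 (adjusted p = 0.0022) and Ddx60 by 2.44 (adjusted p = 0.0023). Ifih1 fell by 1.53 (adjusted p = 0.0043) and Rsad2 by 2.32 (adjusted p = 0.013).

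Weaker calls were Parp9, which fell by 1.31 (adjusted p = 0.022), Ifi204 by 1.16 (0.024), Stat2 by 1.22 (0.028) and Oas2 by 1.79 (0.036). Between 3 and 4 of these 4 were lost without allogeneic library 1 (adjusted p 0.053 to 0.083), allogeneic library 2 (0.055 to 0.074), allogeneic library 3 (0.062 to 0.082), combination library 3 (0.057 to 0.085) or combination library 4 (0.059 to 0.084). Isg15 (-0.18), Irf7 (0.29), Usp18 (0.22), Bst2 (-0.02), Mx1 (-0.93), Ifit1 (-1.62) and Ifi27l2a (0.91) did not pass, with adjusted p of 0.13 or above. Ifi27l2a rose without allogeneic library 2 (2.57, adjusted p = 0.013) and Isg20 without allogeneic library 1 (0.85, adjusted p = 0.038).

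**Figure D3:**
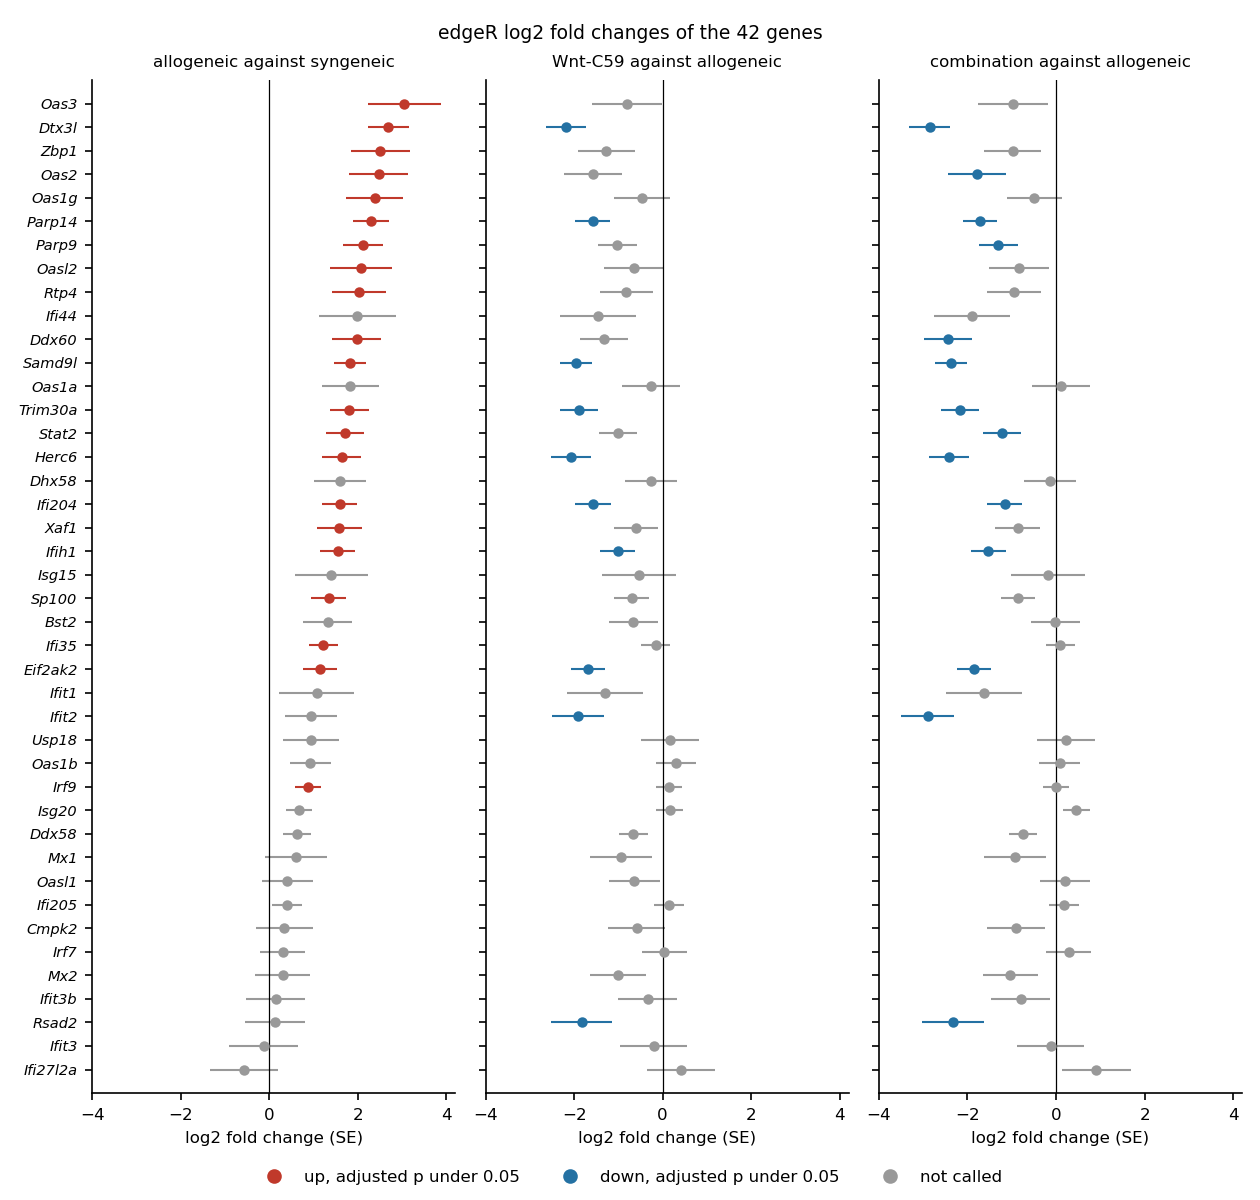
edgeR log2 fold change (points) with its SE (bars) for each of the 42 genes in 3 comparisons, ordered by the first. Red points rose and blue points fell at adjusted p under 0.05. Of the 42, 21 rose in allogeneic skin, 10 fell under Wnt-C59 and 14 under the combination.

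Changes under treatment moved with base composition. Across all 18227 tested genes with a GC content, log2 fold changes correlated with GC content at a Spearman correlation of 0.50 for Wnt-C59 and 0.54 for the combination, and at -0.10 for allogeneic against syngeneic skin. Across the 42 genes the correlation was 0.61, 0.69 and -0.08, where the genes share the same libraries. All 10 genes that fell under Wnt-C59 and 12 of the 14 that fell under the combination were among the 22 genes at or below the median GC content of 47.5%. With the GC trend of each library removed before the fit, 4 of the 42 fell and 1 rose under Wnt-C59, against 19.9% and 20.6% of all tested genes. Those that fell were Dtx3l (-1.82, adjusted p = 0.0058), Parp14 (-1.25, 0.024), Eif2ak2 (-1.08, 0.042) and Stat2 (-1.19, 0.042), and the gene that rose was Ifi205 (1.53, 0.0095), the lowest of the 42 in GC content at 36.1%. Samd9l (-0.84, adjusted p = 0.064), Herc6 (-1.01), Trim30a (-0.97), Ifit2 (-1.14), Rsad2 (-1.28), Ifi204 (-0.62) and Ifih1 (-0.30, adjusted p = 0.58) no longer passed. Under the combination 7 fell and 1 rose, against 20.8% and 22.9% of all tested genes. Dtx3l (-2.42, adjusted p = 0.00099), Parp14, Stat2, Ifit2, Eif2ak2, Samd9l and Oas2 fell, and Ifi205 rose (1.84, 0.0031). Herc6 (-1.11), Trim30a (-1.04), Ddx60 (-1.23), Parp9 (-1.10), Rsad2 (-1.66) and Ifih1 (-0.66) no longer passed, with adjusted p of 0.066 to 0.20. Ifi204, which fell by 1.16 in the fit over all genes, was at -0.00 (adjusted p = 1). The medians stayed below 0, at -0.63 and -0.67. The first comparison kept its direction, with 24 genes up. Whether the GC trend belongs to the treatment or to the libraries cannot be told apart.

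**Figure D4:**
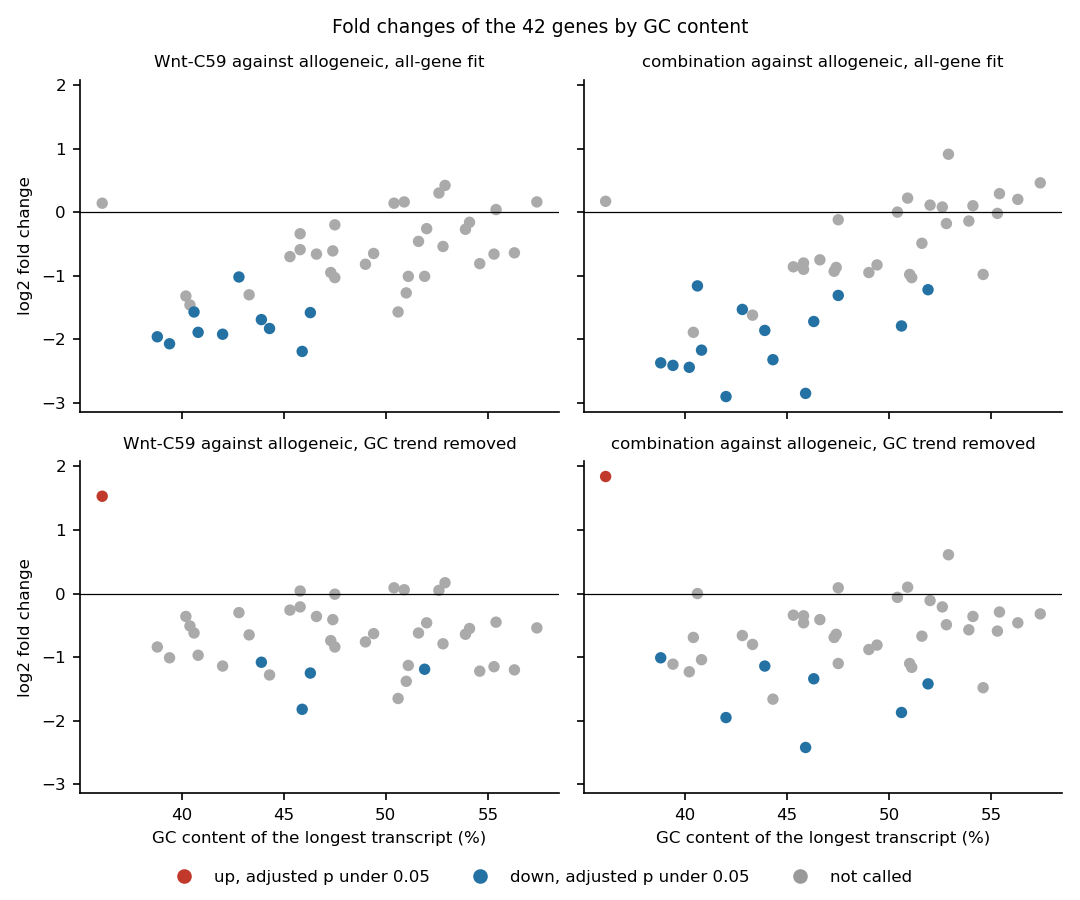
log2 fold change of the 42 genes (y axis) by GC content of the longest transcript (x axis, percent) for both treatments against allogeneic vehicle, in the fit over all genes (top) and with the GC trend removed (bottom). The Spearman correlation goes from 0.61 to -0.08 for Wnt-C59 and from 0.69 to 0.24 for the combination.

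Within both treated groups the genes split the libraries into a high and a low pair. Wnt-C59 libraries 1 and 5 were above libraries 2 and 4 for 40 of the 42 genes, and combination libraries 2 and 5 were above libraries 3 and 4 for 40 of the 42. The share of all tested genes that split the libraries in this way was not counted, so the split is not shown to be particular to these genes. The mean log2 CPM over the 42 genes was 5.61 and 5.21 against 3.63 and 4.25 under Wnt-C59, and 5.38 and 5.19 against 4.07 and 4.02 under the combination. The allogeneic libraries lay at 5.56 to 5.95 and the syngeneic ones at 3.74 to 5.24. Wnt-C59 library 1 and combination library 2 were above all syngeneic libraries, Wnt-C59 library 2 was below them all, and the other 5 treated libraries lay within their range. Oasl2, an oligoadenylate synthetase relative, shows the width: 241, 26.2, 62.3 and 133 CPM under Wnt-C59 and 164, 47.6, 49.6 and 147 CPM under the combination.

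Some other values moved with this split, and others did not. The 24 interferon-gamma response genes summed to 3777 and 2242 CPM in Wnt-C59 libraries 1 and 5 against 999 and 1330 CPM in libraries 2 and 4, and to 2740 and 2024 CPM in combination libraries 2 and 5 against 1248 and 1309 CPM in libraries 3 and 4. The 10 T cell markers, all detected, with Cd8b1 at 0 in part of the libraries, summed to 59.8 and 54.3 against 37.4 and 40.8 CPM, and to 84.1 and 54.8 against 49.1 and 43.7 CPM. Ifng counts were 24 and 18 against 6 and 1, and 25 and 10 against 6 and 6. Macrophage markers summed to 1655 and 1759 against 1316 and 1088 CPM under Wnt-C59, and to 2480 and 1927 against 1858 and 1304 CPM under the combination. Keratinocyte markers summed to 48738 and 54081 against 34402 and 46786 CPM under Wnt-C59, and to 42941 and 44251 against 45824 and 31642 CPM under the combination, where they did not follow the split. Skeletal muscle markers ran the other way under Wnt-C59 (14736 and 17869 against 33834 and 45386 CPM). Under the combination they followed neither direction (29722 and 132 against 11528 and 2432 CPM). The part of these cells in the split was not tested, and the pairs were picked from the values themselves, so they were given no test.

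**Figure D5:**
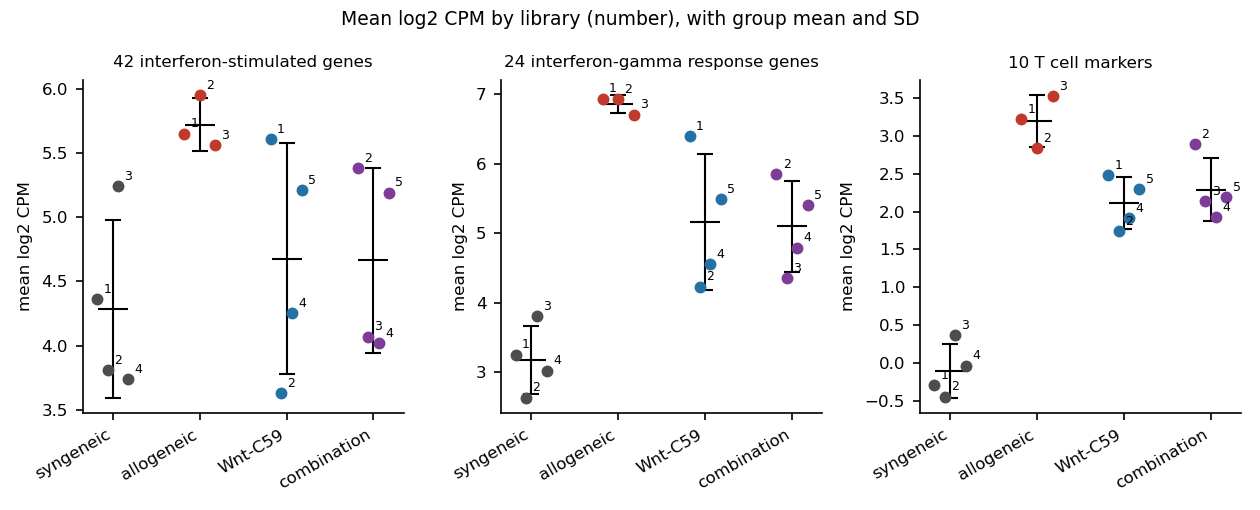
Mean log2 CPM per library (points, numbered) of the 42 genes, of 24 interferon-gamma response genes and of 10 T cell markers, with group mean and SD (bars). Group means are highest in allogeneic skin in each panel (5.72, 6.86 and 3.19). For the 42 genes Wnt-C59 library 1 (5.61) lies within the range of the allogeneic libraries (5.56 to 5.95). Combination library 2 (5.38) and syngeneic library 3 (5.24) come nearest below that range.

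No gene of the 42 passed between the combination and Wnt-C59 alone. The combination against Wnt-C59 gave 0 up and 0 down, where 0.231% of all tested genes were called in either direction, and DESeq2 and limma-voom also gave 0. Ddx60 had the lowest log2 fold change at -1.11 (SE 0.51, adjusted p = 0.24) and was the only gene of the 42 at an unadjusted p under 0.05 (0.049). The median was -0.15. Isg15 (0.36, SE 0.78), Stat2 (-0.21, SE 0.40), Ifit1 (-0.32, SE 0.80), Mx1 (0.02, SE 0.65), Irf7 (0.25, SE 0.47), Usp18 (0.06, SE 0.60), Rsad2 (-0.49, SE 0.65), Oas2 (-0.21, SE 0.61), Bst2 (0.64, SE 0.51) and Ifi27l2a (0.50, SE 0.71) did not pass, and with SEs of this size a similar response is not shown either.

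Both treated groups were also set against syngeneic skin. Under Wnt-C59, 8 of the 42 genes were above syngeneic and 1 below, beside 26.0% and 27.0% of all tested genes. Under the combination 8 were above and 2 below, beside 26.9% and 27.2%. The medians were 0.59 and 0.53, against 0.04 and 0.01 for all tested genes. Ifi35, a scaffold protein that interferon induces, lay at 30.2 ± 12.7 CPM in syngeneic skin, 63.2 ± 14.1 under Wnt-C59 and 75.3 ± 27.8 under the combination (1.06, adjusted p = 0.0089, and 1.32, adjusted p = 0.0022). Irf9 was above syngeneic by 1.02 (adjusted p = 0.0073) and 0.88 (adjusted p = 0.016). Oas1g (1.93 and 1.89, adjusted p = 0.018 and 0.019), Oas3 (2.24 and 2.07, 0.028 and 0.038), Oas1a (1.57 and 1.94, 0.047 and 0.019) and the exonuclease Isg20 (0.82 and 1.13, 0.023 and 0.0037) were above syngeneic under both. Oas1b (1.24, 0.026) and Parp9 (1.08, 0.042) were above it under Wnt-C59, and Dhx58 (1.46, 0.041) and Bst2 (1.30, 0.048) under the combination.

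Rsad2 was below syngeneic under both treatments (-1.70, adjusted p = 0.043, and -2.20, adjusted p = 0.014), and Ifit2 under the combination (-1.96, adjusted p = 0.0098). The Rsad2 calls rested on syngeneic library 3, which held 50.4 CPM against 5.78 to 13.8 CPM in the other 3: without it adjusted p was 0.29 and 0.069. With the GC trend removed all 3 lower calls were lost, and so were 4 of the 8 upper calls in each comparison. Under Wnt-C59 these were Isg20 (0.44, adjusted p = 0.19), Oas1a (1.41, 0.075), Oas1b (1.04, 0.061) and Oas3 (1.98, 0.051), while 5 other genes passed, for 9 up. Under the combination they were Bst2 (0.92, 0.15), Dhx58 (1.15, 0.11), Isg20 (0.66, 0.058) and Oas3 (1.72, 0.083), while Ifi204 and Ifi205 passed, for 6 up. Isg15 (0.86 and 1.22), Stat2 (0.71 and 0.50), Irf7 (0.34 and 0.59), Usp18 (1.10 and 1.15), Oas2 (0.90 and 0.68), Ifit1 (-0.23 and -0.55), Mx1 (-0.35 and -0.32) and Ifi27l2a (-0.15 and 0.35), did not pass. Counts above syngeneic ranged from 2 to 16 in each comparison as single libraries were left out. They were 16 in each without syngeneic library 3, while Ifi35 was the only call to hold in all 15 alternatives of both comparisons. For Wnt-C59, 7 of the 9 calls were lost without syngeneic library 1 (adjusted p 0.05 to 0.11), 6 without syngeneic library 2 (0.055 to 0.12) and 5 without syngeneic library 4 (0.051 to 0.11). Leaving out Wnt-C59 library 1 or 5 cost 5 calls each (0.051 to 0.18 and 0.051 to 0.10), library 4 cost 3 (0.062 to 0.11) and library 2 cost 2 (0.072 to 0.11). For the combination, Bst2, Dhx58, Oas1a, Oas1g and Oas3 were lost without syngeneic library 1 (0.054 to 0.12), 2 (0.056 to 0.12) or 4 (0.053 to 0.10), and with Irf9 without combination library 2 (0.055 to 0.15). Bst2, Dhx58 and Oas3 were lost without combination library 5 (0.076 to 0.084), and Bst2 without combination library 3 (0.067).

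The interferons themselves were nearly absent from these libraries. Of 18 type I interferon genes, 13 had no count in any library, the other 5 summed to 17.2 counts over all 15 libraries, and none passed the filter to be tested. Ifnb1, interferon-beta, had 2 counts in syngeneic library 3 and 4 in allogeneic library 1, and 0 elsewhere. Ifnk, the interferon of keratinocytes, had at most 2 counts. A count of 0 allows up to 3 counts per library, so low expression was not detectable at this depth. Ifng had 1, 0, 2 and 1 counts in syngeneic libraries and 59, 48 and 60.9 in allogeneic ones, a rise of 6.00 on the log2 scale (SE 0.86, adjusted p = 0.00018). It fell under Wnt-C59 (-2.42, adjusted p = 0.0082) and under the combination (-2.65, adjusted p = 0.0044).

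Both chains of the type I receptor and the kinase Jak1 rose in allogeneic skin. Ifnar2 rose by 1.28 in allogeneic skin (adjusted p = 0.00021) and did not pass under either treatment. Ifnar1 rose by 0.46 (adjusted p = 0.019), which did not pass without allogeneic library 1 (0.058) or 3 (0.064). This rise was also lost with no filter on low counts (0.086), only the 2 groups compared (0.081) or the replicate number as a block (0.25). Ifnar1 fell by 0.48 under Wnt-C59 (adjusted p = 0.0082) and by 0.40 under the combination (adjusted p = 0.02). The fall under the combination did not pass without allogeneic library 1 (0.061), allogeneic library 3 (0.12) or combination library 4 (0.05). It was also lost with no filter on low counts (0.1) or only the 2 groups compared (0.061). Jak1 rose by 1.04 (adjusted p = 0.00037) and fell by 0.84 and 0.96 under the treatments (adjusted p = 0.00075 and 0.00022).

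All 24 interferon-gamma response genes rose in allogeneic skin, with a median of 3.58 against 1.37 for the 42 genes, and 13 and 14 of them fell under Wnt-C59 and the combination (medians -1.49 and -1.93). Cxcl9, a chemokine that draws T cells, lay at 3.62, 2.69, 8.29 and 3.44 CPM in syngeneic and at 675, 264 and 360 CPM in allogeneic skin (6.58, SE 0.82, adjusted p = 0.00013). Of 14 genes of nucleic acid sensing and interferon induction, 9 rose and 1 fell in allogeneic skin, 3 rose and 7 fell under Wnt-C59, and 4 rose and 6 fell under the combination. Tlr7, a receptor for single-stranded RNA in endosomes, fell by 3.01 (adjusted p = 0.00029) and 3.52 (adjusted p = 8.4e-05) under the treatments. Irf3, a factor that switches on interferon-beta, was the gene that fell in allogeneic skin (-0.45, adjusted p = 0.038). This call was lost without any 1 vehicle library other than syngeneic library 1 (0.055 to 0.16). It was also lost with the GC trend removed (-0.19, adjusted p = 0.31), with only the 2 groups compared (0.1) and with the replicate number as a block (0.24). A filter of at least 1 CPM in 3 libraries lost it too (0.059). Irf3 rose by 1.02 (adjusted p = 0.00012) and 1.28 (adjusted p = 1.9e-05) under Wnt-C59 and the combination. A further list held 12 genes: Socs1, Socs3, Pias1, Ptpn2, Ptpn6, Adar, Trex1, Samhd1, Rnaseh2a, Rnaseh2b, Rnaseh2c and Nlrc5. Not all of them are feedback inhibitors of interferon signalling. Of these 12, 7 rose in allogeneic skin, 1 rose and 4 fell under Wnt-C59, and 2 rose and 4 fell under the combination. Of all tested genes 14.6% rose in allogeneic skin, 24.6% rose and 26.2% fell under Wnt-C59, and 27.1% rose and 27.4% fell under the combination. No list was tested against these shares.

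Markers of several cell types differed between the groups. Macrophage markers summed to 490 to 877 CPM in syngeneic, 3622 to 5030 CPM in allogeneic, 1088 to 1759 CPM in Wnt-C59 and 1304 to 2480 CPM in combination libraries, and 11 of 12 rose in allogeneic skin. T cell markers summed to 10.6 to 16.7, 79.0 to 125, 37.4 to 59.8 and 43.7 to 84.1 CPM, and 10 of 10 rose in allogeneic skin. Neutrophil markers summed to 5.69 to 8.51 CPM in syngeneic and to 3602, 97.1 and 422 CPM in allogeneic libraries, where 6 of 7 tested rose. Of 8 endothelial markers 6 rose in allogeneic skin, and of 10 adipocyte markers 4 fell there and 10 rose under each treatment. Under Wnt-C59, 12 macrophage, 8 T cell and 6 neutrophil markers fell, and under the combination 9, 5 and 4 did. These counts were taken with the GC trend left in, and counts without it are not given here. With the trend removed the T cell marker Cd3e no longer passed under Wnt-C59 (-0.89, adjusted p = 0.051) or the combination (-0.33, 0.46). Of all tested genes 14.6% rose in allogeneic skin. Under Wnt-C59 24.6% rose and 26.2% fell, and under the combination 27.1% rose and 27.4% fell. Siglech, a defining marker of plasmacytoid dendritic cells, which are known for interferon-alpha production, had 17 to 23 counts in syngeneic and 0 to 3 in allogeneic libraries (-2.87, SE 0.77, adjusted p = 0.012). With the replicate number as a block it did not pass (-3.01, adjusted p = 0.064). It was the only 1 of the 7 tested genes of that list to fall, while 2 rose (Spib and Ly6d), and the median of the 7 was 0.89. Ly6d had 4591.7 to 27029.3 counts per library. Cox6a2, also of that list, had 3 counts in combination library 5 and 3480.8 in Wnt-C59 library 4. Skeletal muscle markers summed to 132 and 45386 CPM in these libraries. Whether Ly6d and Cox6a2 come from other skin cells was not tested, so the list is no measure of plasmacytoid dendritic cells alone. Klk1, Cd300c and Siglech of that list were at 0 in part of the libraries. The part of these cells in the levels of the 42 genes was not tested.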

How the data were processed

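Total RNA from 15 skin samples was sequenced. The authors deposited 1 table of unscaled estimated counts, many with fractions, listed by Ensembl identifier. The submitters' processing notes name FastQC, Trim Galore, HISAT2 and featureCounts, with build GRCm39, and no versions. The strand setting is not given in the sources used here. Vehicle columns were matched by title, Wnt-C59 columns by name and combination columns by elimination, and treated libraries carry their column numbers, not the title numbers.

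Symbols matched 51276 of 56059 genes (91.5%) through GENCODE M21 (GRCm38), used only for symbols, GC content and transcript length. Rounded counts were analysed in edgeR 4.0.16 (R 4.3.3) with TMM, filterByExpr and a robust quasi-likelihood fit of all 15 libraries with group as the only term, and Benjamini-Hochberg adjustment within each of 6 comparisons. No pair of libraries held identical values. Alternatives were DESeq2 1.42.0, limma-voom (limma 3.58.1), other scalings and filters, a GC correction, only the 2 groups compared, a replicate block, and each library left out. The steps were tested on simulated data.

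The listed genes, the other gene lists and the tests were chosen with earlier results of these data known. Named in each comparison were Isg15, Ifit1, Mx1, Irf7, Stat2, Usp18, Rsad2, Oas2, Bst2 and Ifi27l2a, up to 8 further called genes in each direction by adjusted p, and any called against the majority; from other lists Ifnar1, Ifnar2, Ifnb1, Ifng, Cxcl9 and up to 3 called genes, of which only some are printed. Other genes named for their level or library were chosen after their values were seen. Oas1a and Oas1g share 57.6% and 54.7% of their 50-base words with another gene, Ifit3 and Ifit3b 51.2% and 45.0%, Ifi204 30.2% and Herc6 23.8%, and how the authors' counting split such reads is not stated, so their values are uncertain. Some results are not reported here.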

Additional observations from a re-analysis of the deposited data

Results flagged for a closer look

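In 6 of 129 groups of 4 libraries checked, the highest library stood far from the rest of its group. The limit used is one that about 1 in 20 independent groups would pass by chance. The groups checked share libraries, so the count of 6 cannot be set against that rate. All 6 were syngeneic library 3. It held 76.9 CPM of Isg15 (next 23.5), 41.2 CPM of Usp18 (next 14.2), 40.3 CPM of Oas1a (next 14.4), 36.5 CPM of Rtp4 (next 16), 16.6 CPM of Oasl1 (next 3.99) and 13.7 CPM of Oas1g (next 5.87). The 42 genes share this library, so the 6 are not independent. Several summed markers were also highest there: macrophage 877 CPM (the others 490 to 578), adipocyte 2054 (899 to 1140), keratinocyte 20086 (11248 to 18687) and T cell 16.7 (10.6 to 13.2). Skeletal muscle markers were lowest there, at 3495 CPM (4225 to 7026). Their part in these values was not tested.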

How the results depend on the processing

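No named gene that passed in either of 2 fits changed its direction between them. For allogeneic against syngeneic skin the number of genes that rose was 24 with DESeq2, 23 with limma-voom, 15 with no filter, 24 with the GC trend removed and 14 to 26 with single libraries left out, and the number that fell was 0 to 1. Same-numbered vehicle libraries did not deviate together (correlations -0.048, -0.143 and 0.008), and with the replicate number as a block 22 rose and 0 fell. For Wnt-C59 against allogeneic skin the number that fell was 16 with limma-voom, 4 with the GC trend removed and 7 to 17 with libraries left out, and 1 rose with the GC trend removed (0 to 1 with libraries left out). For the combination 7 fell and 1 rose with the GC trend removed, and 10 to 15 fell and 0 to 1 rose with libraries left out. Against syngeneic skin, Wnt-C59 gave 4 up with limma-voom, 4 with no filter, 9 with the GC trend removed and 2 to 16 with libraries left out, and 0 down with limma-voom, no filter, the GC trend removed or only 2 groups (0 to 2 with libraries left out). The combination gave 5 up with no filter, 6 with the GC trend removed and 2 to 16 with libraries left out, and 0 down with the GC trend removed (1 to 2 with libraries left out). The causes were not tested. The combination against Wnt-C59 gave 0 under each alternative. The longer motif was in 30% of windows, in place of 53.3%. Of 1464 alternative values of the named genes, 123 calls were lost and 17 gained. The other 1324 kept their side of the threshold, and those called in both fits kept their direction. These 1324 include 732 values called in neither fit, of which 56 changed sign. Where a lone library was left out, 2 or 3 remained per group. Depth limits the interferon genes themselves.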
